A study of Mus musculus with 5 samples.

Results

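The genes described here are 7 components of TGF-beta signalling: the ligands Tgfb1, Tgfb2 and Tgfb3, the receptor subunits Tgfbr1 and Tgfbr2, and 2 genes linked to the pathway through activation and response, Thbs1 and Tgm2. They were taken by name from the mouse features of 5 single-cell RNA-seq libraries of trachea, and all 7 are present among 30907 mouse genes. TGF-beta ligands are secreted in a latent complex and must be released before they bind. Active ligand brings the type II receptor (Tgfbr2) and the type I receptor (Tgfbr1) together, and the type I receptor then phosphorylates SMAD proteins, which enter the nucleus. In airway epithelium the pathway is known for restraining proliferation of basal stem cells and for its part in wound repair and matrix production.

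Basal cells derived from mouse embryonic stem cells (iBCs) were placed in the tracheas of adult wild type 129 X1/S1 mice. Each recipient first received 2% polidocanol, a detergent that strips the airway surface, and 6000000 iBCs followed after 5 hours. One recipient was analysed on day 40 and another on day 56. From each, live (Calcein Blue+) cells were sorted into GFP+ cells, labelled donor-derived, and GFP- cells, labelled endogenous, so that both libraries of a day come from 1 animal. A control mouse of the same background had neither injury nor transplant and gave 1 library of Calcein Blue+ cells. The p-values below rest on 2 libraries a group from 2 animals, and donor origin and sort gate cannot be told apart.

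Each library kept between 611 and 1731 cells, 6554 in all, with between 7396581 and 25354119 mouse UMIs (unique molecular identifiers, one per captured transcript). An EGFP UMI was found in 56.2% and 46.2% of donor-derived cells on days 40 and 56, in 1 endogenous cell and in no control cell. No 2 libraries shared more than 2 cell barcodes. Clustering gave basal-like cells (Krt5, Krt14, Krt15, Trp63), secretory-like cells (Scgb1a1, Scgb3a1, Scgb3a2, Bpifa1) and ciliated-like cells (Foxj1, Ccdc153, Dynlrb2) in all 5 libraries. Donor-derived and endogenous cells of a class lay in different clusters: 0, 5, 7 and 13 against 2 for basal-like, 4 against 1 for secretory-like, 14 against 6 and 10 for ciliated-like cells. Cluster 0 was led by the alveolar gene Sftpc beside basal genes. The 2 secretory-like clusters were led by different markers, Scgb3a1 and Bpifa1 in cluster 1 and Scgb1a1 and Hp in cluster 4. They had 16 and 10 markers detected. Of the 41 donor-derived ciliated-like cells on day 40, 19 lay in the endogenous clusters. Tests in that class are given with and without them (with own-gate clusters alone, an alternative chosen after seeing the data). That alternative drops cells by clusters formed from expression, with Thbs1 and Tgm2 among the clustering genes. Larger changes there are no separate support, and their cause was not tested. Levels and shares of the class include them unless a cluster is named. Levels are CPM, a gene's UMIs per 1000000 UMIs summed over a class, and since this chemistry counts transcript ends they are compared across cells, not between genes.

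In the GRCm38 build with GENCODE M21, Tgfb1 lies at chr7:25687002-25705077 on the plus strand, Tgfb2 at chr1:186622792-186705989 on the minus strand and Tgfb3 at chr12:86056745-86079041 on the minus strand. Tgfbr1 lies at chr4:47353222-47414931 (plus), Tgfbr2 at chr9:116084293-116175360 (minus), Thbs1 at chr2:118111876-118127133 (plus) and Tgm2 at chr2:158116402-158146436 (minus). RefSeq promoter sequences (GRCm38.p6) matched 4 of the 7 symbols. The 250 bases before the start sites of Tgfb2, higher in donor-derived than in endogenous basal-like cells, and of Tgfb1, for which no difference was called there, are shown because the 2 ligand genes begin in unlike sequence. Capitals mark TATAAA (searched on the given strand) and CAGAC (the SMAD box, both strands) for Tgfb2, and GGGCGG (the GC box, both strands) for Tgfb1.
Tgfb2: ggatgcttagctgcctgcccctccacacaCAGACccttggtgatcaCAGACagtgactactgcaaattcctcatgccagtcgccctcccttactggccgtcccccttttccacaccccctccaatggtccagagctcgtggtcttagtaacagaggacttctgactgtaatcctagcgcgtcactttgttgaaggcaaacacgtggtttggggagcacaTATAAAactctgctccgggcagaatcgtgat
Tgfb1: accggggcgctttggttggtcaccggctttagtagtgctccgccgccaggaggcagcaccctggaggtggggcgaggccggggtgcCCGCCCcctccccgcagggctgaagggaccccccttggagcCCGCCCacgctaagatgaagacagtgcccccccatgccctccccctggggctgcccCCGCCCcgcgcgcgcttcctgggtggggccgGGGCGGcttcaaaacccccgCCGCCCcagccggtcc

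The Tgfb2 window (chr1:186705990-186706239, minus strand) held 1 TATAAA, which 7.59% of 32851 promoter windows of the same length hold, and 2 CAGAC, which 42.2% hold at least once. It also held 1 CACGTG (E-box, both strands, left in lower case), present in 6.02% of windows, and these matches do not overlap. The Tgfb1 window (chr7:25686752-25687001, plus strand) held 5 GGGCGG, which 32.7% of windows hold at least once, and none of the motifs marked for Tgfb2. Neither window held TGANTCA (AP-1) or TGACGTCA (CRE). GC content was 53.6% for Tgfb2 and 75.2% for Tgfb1, against a median of 52.4% over all windows. A match is a string of letters, not a measured binding site.

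Among the ligands, Tgfb2 was the one that separated donor-derived from endogenous basal-like cells. Basal cells are the stem cells of the tracheal lining. Tgfb2 stood at 74.9 CPM on day 40 and 64.5 CPM on day 56 in donor-derived basal-like cells, at 14.5 and 13.8 CPM in endogenous ones, and at 11.3 CPM in the control (7 UMIs, exact Poisson 95% interval 4.54 to 23.3). Both donor-derived values lay above every other library. The rise was 4.50-fold (log2 fold change 2.17, SE 0.18, adjusted p = 0.000554, edgeR's quasi-likelihood test with Benjamini-Hochberg adjustment over 11479 genes). All 7 genes could be tested in this class, and 1 rose and 1 fell, where 10.7% of all genes tested were called. Over all genes 4.07% rose and 6.61% fell. Blocking on the recipient called 2009 genes in place of 1226, and 3 of the 7.

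The share of cells with a Tgfb2 UMI gave the same order. It was 44.6% and 38.6% of donor-derived basal-like cells on days 40 and 56, 11.6% and 12.4% of endogenous ones, and 7.58% of the 66 control cells (exact Clopper-Pearson 95% interval 2.51% to 16.8%). After each cell was thinned to 5000 UMIs, which left out 7, 41, 15, 4 and 0 shallower cells in that order, the shares were 25.3%, 25.9%, 7.10%, 5.65% and 4.55%. T or NK-like cells, a type that should lack the gene, had a UMI of it in 1 of 36 cells (2.78%) and 0 of 123 cells, which allows a share of cells with a UMI of up to 2.44% (3 cells of the total). Their median depths were 5588 and 5410 UMIs, against 8233.5 to 10802.5 in basal-like cells. These intervals cover counting error only.

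Within the donor-derived basal-like cells, Tgfb2 ranged from 46.1 CPM (cluster 0, day 40) to 86.5 CPM (cluster 7, day 40) over the 8 values by cluster and day. Each lies above every endogenous and control value of the class. The 14 donor-derived day 40 cells that lay in the endogenous basal-like cluster 2 had 29.8 CPM (7 UMIs, interval 12.0 to 61.5). This interval holds the endogenous values and the 46.1 CPM of cluster 0. It ends below both donor-derived values of the class (74.9 and 64.5 CPM). Fibroblasts are another source of TGF-beta ligands, and fibroblast-like cells on day 56 had the highest Tgfb2 level of any class (198 CPM, 34 UMIs in 21 cells). In basal-like cells the fibroblast list summed to 448 and 663 CPM when donor-derived, 655 and 730 CPM when endogenous and 723 CPM in the control. Nearly all of it was Dcn, and the part of fibroblasts in the Tgfb2 levels was not tested.

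Secretory-like cells, which coat the airway with secretoglobins and antimicrobial proteins, showed the same direction for Tgfb2 at a lower level. Tgfb2 was 21.6 and 33.2 CPM in donor-derived cells on days 40 and 56, 8.49 and 6.33 CPM in endogenous cells and 11.9 CPM in the control (interval 8.66 to 16). The donor-derived libraries lay above the others, by 3.16-fold over the endogenous ones (log2 fold change 1.66, SE 0.25, adjusted p = 0.000226). Of the 6 genes tested here, 2 rose and 1 fell, against 16.7% of all 10533 genes called (7.04% higher, 9.66% lower). The Tgfb2 rises in basal-like and secretory-like cells differed by 0.52 on the log2 scale (SE 0.34, adjusted p = 0.524 by the class-by-group interaction in edgeR). The difference was 1.05 without the day 56 donor-derived library and 0.17 without the day 40 one. Such fits leave 1 donor-derived library, so only their effect sizes are given. Scaling by total UMIs in place of TMM put the median log2 fold change of all genes at 0.28 in this class, 0.13 in basal-like and 0.10 in ciliated-like cells. The split of higher against lower calls then went from 742 and 1017 to 2090 and 658 in secretory-like, from 467 and 759 to 639 and 648 in basal-like, and from 202 and 203 to 235 and 141 in ciliated-like cells. Tgfb2 in secretory-like cells stood at 1.94 on that scale, above the shifted median. In ciliated-like cells Tgfb2 had at most 3 UMIs in a library and was not tested.

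Tgfb1, the ligand best known from immune cells, was highest in the immune classes. In endogenous libraries it was 247 and 301 CPM in cluster 17 (an unnamed immune cluster with Siglech), 177 and 235 CPM in macrophage-like, 194 and 193 CPM in T or NK-like, 142 and 147 CPM in dendritic-like and 151 and 121 CPM in B-like cells, days 40 and 56. Cluster 17 lay above the rest, macrophage-like and T or NK-like cells overlapped below it, and so did dendritic-like and B-like cells. Epithelial classes of 20 or more cells lay lower. Among epithelial cells it was highest in donor-derived microfold-like cells, which sample antigens (49.5 and 56.2 CPM), and in donor-derived cells of the dividing cluster 18 on day 40 (51.8 CPM), and then in endogenous hillock-like cells (38.3 and 28.8 CPM). Basal-like cells had 31.8 and 26.2 CPM when donor-derived, 24.0 and 24.0 CPM when endogenous and 27.4 CPM in the control. The donor-derived and endogenous basal-like values did not separate by the test (log2 fold change 0.15, SE 0.18, adjusted p = 0.711).

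In secretory-like cells Tgfb1 was near the limit of detection, with 8 and 26 UMIs (3.20 and 3.94 CPM) in donor-derived libraries and 4 and 5 UMIs (0.77 and 0.99 CPM) in endogenous ones. It passed the test there (log2 fold change 1.76, SE 0.54, adjusted p = 0.0298). The control stood at 2.71 CPM (interval 1.30 to 4.98), and the call was lost without any 1 of the 4 libraries. Of 14 alternatives 9 lost it, among them clustering without the pathway's genes (log2 fold change 0.51, adjusted p = 0.39). As a background for this ligand, ciliated-like cells had between 0 and 9 Tgfb1 UMIs in a library.

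In basal-like cells Tgfb3 was 5.69 and 5.02 CPM when donor-derived, 2.96 and 8.67 CPM when endogenous and 4.84 CPM in the control (3 UMIs). The endogenous days lay on either side of the donor-derived ones, and no difference was called (log2 fold change -0.17, SE 0.48, adjusted p = 0.892). Secretory-like and ciliated-like cells had at most 8 Tgfb3 UMIs in a library. Fibroblast-like cells had 4 UMIs (23.3 CPM, interval 6.34 to 59.6).

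**Figure D1:**
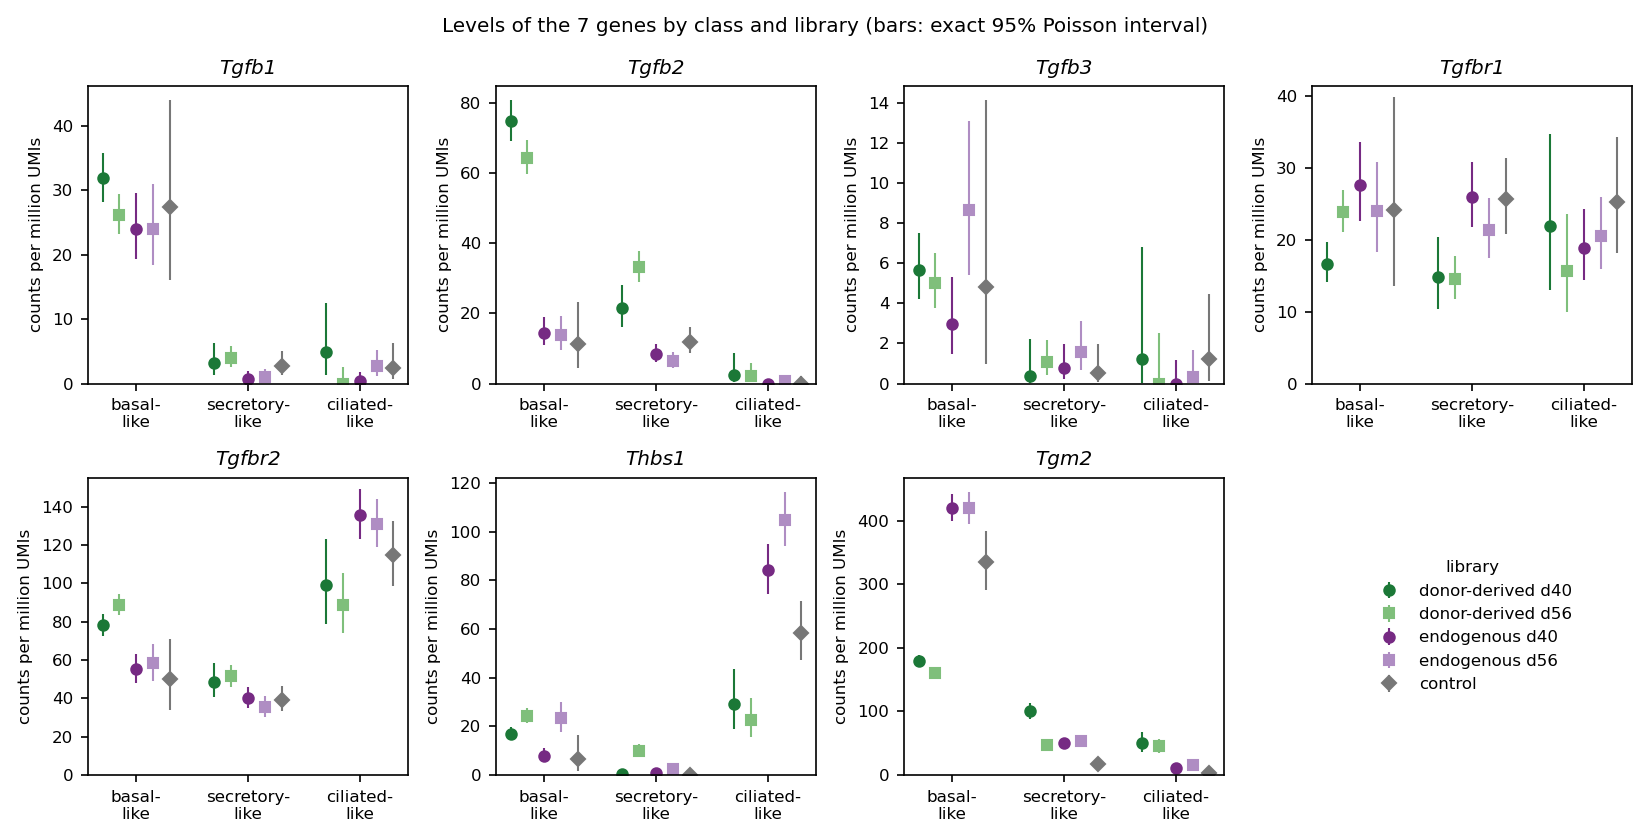
Levels of the 7 genes in CPM (vertical axis, linear from 0) in the 3 epithelial classes, 1 point per library with its exact 95% Poisson interval. Tgfb2 in donor-derived basal-like cells (74.9 and 64.5 CPM) and Tgm2 in endogenous basal-like cells (both near 420 CPM) stand above the other libraries of the class.

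The receptor subunits were present in nearly every class, and the type I receptor was led by myeloid cells. Tgfbr1 was 271 and 281 CPM in cluster 17, 229 and 236 CPM in macrophage-like cells and 127 and 139 CPM in dendritic-like cells, and the library ranges of these 3 did not overlap. Epithelial classes of 20 or more cells ranged from 14.5 to 44.4 CPM over their libraries. In secretory-like cells Tgfbr1 was 14.8 and 14.5 CPM in donor-derived libraries, 26.0 and 21.4 CPM in endogenous ones and 25.7 CPM in the control (interval 20.8 to 31.5), so the donor-derived pair lay below the rest. This fall was called (log2 fold change -0.97, SE 0.20, adjusted p = 0.00166; with DESeq2 adjusted p = 0.0739). Macrophages carry much Tgfbr1, so their markers are given beside this result. The pan-leukocyte gene Ptprc had 0 CPM in both donor-derived and 0.386 and 2.97 CPM in endogenous secretory-like libraries. The 7 macrophage markers other than Lyz2 summed to 3.60 and 1.06 against 5.79 and 2.97 CPM, with 1 and 2 of them detected against 3 and 4. Macrophage-like cells had 4090 and 5400 CPM of these markers. Their part in the Tgfbr1 fall was not tested. Lyz2 was 144 and 410 against 4600 and 9730 CPM, above its level in macrophage-like cells in the endogenous pair (2860 and 2580 CPM).

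In basal-like cells Tgfbr1 was 16.7 and 23.9 CPM when donor-derived, 27.7 and 24.0 CPM when endogenous and 24.2 CPM in the control. These did not separate (log2 fold change -0.47, SE 0.23, adjusted p = 0.272). Over the alternatives run the change ranged from -0.757 to -0.245. In ciliated-like cells it was 22 and 15.7 against 18.9 and 20.5 CPM, with 25.3 CPM in the control, and was not called (log2 fold change -0.21, SE 0.28, adjusted p = 0.727; with own-gate clusters alone -0.34, adjusted p = 0.548).

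Tgfbr2, the ligand-binding subunit, was highest in fibroblast-like cells (308 CPM, 53 UMIs, 1 library) and cluster 17 (166 and 231 CPM). Endogenous ciliated-like cells came next, with 136 and 131 CPM, above B-like cells (121 and 109 CPM). Donor-derived ciliated-like cells had 98.9 and 88.9 CPM and the control 115 CPM. The donor-derived pair was the lowest. The log2 fold change was -0.61 (SE 0.17) and missed the threshold (adjusted p = 0.0881). It passed in 5 of 13 alternatives, among them the one that kept only cells in clusters of their own gate (-0.70, adjusted p = 0.014). Over the alternatives run, among them leaving out 1 library, it ranged from -0.711 to -0.509.

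Basal-like cells showed the opposite sign for Tgfbr2, with 78.1 and 88.8 CPM when donor-derived, 55.2 and 58.3 CPM when endogenous and 50.1 CPM in the control. Both donor-derived values lay above the rest. The difference was not called (log2 fold change 0.44, SE 0.14, adjusted p = 0.101). It was called with the recipient as a block (0.43, adjusted p = 0.0442) and with total-UMI scaling. Without the day 40 donor-derived library it was 0.53. The change in basal-like minus that in ciliated-like cells was 1.08 on the log2 scale (SE 0.22, adjusted p = 0.0306 by the interaction test, in which 1.97% of genes were called). With 1 library left out the difference ranged from 0.92 to 1.24, and whether it was called depended on the library. With own-gate clusters alone the difference was 1.19 (adjusted p = 0.00618). In secretory-like cells Tgfbr2 was 48.8 and 51.5 against 40.1 and 35.4 CPM and was not called (log2 fold change 0.13, SE 0.15, adjusted p = 0.651). Microfold-like cells had the lowest level among donor-derived classes (19.0 and 13.5 CPM).

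Thbs1 and Tgm2 moved in opposite directions in donor-derived ciliated-like cells, the cells that bear motile cilia. Thrombospondin 1, the product of Thbs1, is an extracellular glycoprotein that can release TGF-beta from its latent complex. Thbs1 was 29.3 and 22.6 CPM in donor-derived ciliated-like cells on days 40 and 56, 84.2 and 105 CPM in endogenous ones and 58.5 CPM in the control (95 UMIs, interval 47.4 to 71.6). The 2 groups did not overlap, and the control lay between them. After thinning to 5000 UMIs, a Thbs1 UMI was found in 4.88% and 3.60% of ciliated-like cells of the donor-derived gate, in 30.3% and 39.5% of those of the endogenous gate and in 27.3% in the control. Before thinning these shares were 26.8%, 12.8%, 51.1%, 62.4% and 42.2%. The fall was 3.99-fold (log2 fold change -2.0, SE 0.23, adjusted p = 0.00327). Of the 4 genes tested in this class 1 rose and 1 fell, against 3.85% of all 10513 genes called (1.92% higher, 1.93% lower).

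Removing the cells that lay in the other gate's clusters left 22 and 112 donor-derived ciliated-like cells. It dropped donor-derived cells for lying near endogenous ones in expression, Thbs1 included, so a larger fall is no separate support. Thbs1 then changed by -2.47 (adjusted p = 4.1e-05), and 1227 genes were called in place of 405. By cluster, Thbs1 was 8.42 and 22.1 CPM in donor cluster 14 against 95.3 and 106 CPM in cluster 6 and 65.8 and 103 CPM in cluster 10 of endogenous cells. The 11 donor-derived day 40 cells that lay in cluster 6 had 59.4 CPM (15 UMIs, interval 33.2 to 97.9). All 10 genes of a dissociation stress list (Fos, Jun, Egr1 and others) were detected. Their sum was 564 and 755 CPM in ciliated-like cells of the donor-derived gate against 351 and 510 CPM in endogenous ones. The part of this list in the Thbs1 fall was not tested.

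In basal-like cells Thbs1 overlapped between origins. It was 16.8 and 24.4 CPM in donor-derived cells on days 40 and 56, 7.80 and 23.2 CPM in endogenous cells and 6.46 CPM in the control (4 UMIs). No difference was called (log2 fold change 0.35, SE 0.52, adjusted p = 0.774), and the sign turned without the day 40 endogenous library (-0.27). Within the donor-derived cells, Thbs1 was 33.8 and 103 CPM in cluster 7, led by Cxcl10, Krt17 and Krt14, and 18.8 and 77.5 CPM in cluster 13, led by Tnfrsf12a and Hbegf. Clusters 0 and 5 stayed at or below 5.77 CPM. The clusters were formed with Thbs1 among their variable genes, so these levels are a description.

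**Figure D2:**
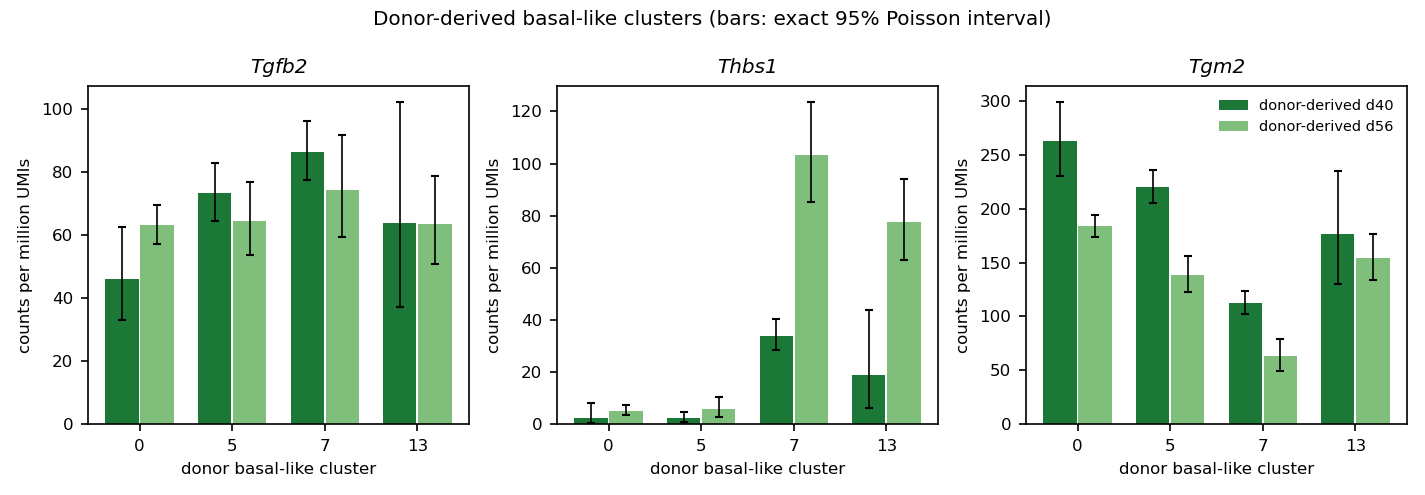
CPM (vertical axes, from 0) of Tgfb2, Thbs1 and Tgm2 in the 4 donor-derived basal-like clusters, bars by day with exact 95% Poisson intervals. Tgfb2 stays between 46.1 and 86.5 CPM, Thbs1 is concentrated in clusters 7 and 13, and Tgm2 is lowest in cluster 7.

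Thbs1 was higher on day 56 than on day 40 in each of the classes where it was most abundant, apart from donor-derived ciliated-like cells. It was 65.8 and 326 CPM in endogenous hillock-like cells, the Krt13-positive cells of stratified patches, 64.8 and 200 CPM in donor-derived microfold-like cells, and 50.6 and 151 CPM in donor-derived cluster 3, an unnamed cluster led by Cldn18 and Upk3a. Each day is 1 animal, so time and animal cannot be told apart and no test was made. The dissociation stress list was also higher on day 56 in basal-like cells (989 to 1918.5 CPM when endogenous, 1501 to 2023 CPM when donor-derived) and hillock-like cells (2531 to 2913 CPM). It was 606 and 577 CPM in microfold-like cells. Its part in the Thbs1 levels was not tested.

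Secretory-like cells held little Thbs1, with 1 and 66 UMIs in donor-derived libraries, 4 and 13 in endogenous ones and 0 in the control, which allows up to 0.813 CPM (3 UMIs of the total). No call was made (log2 fold change 1.67, SE 1.49, adjusted p = 0.621). The result depended on the class's borders: with clusters 3 and 8 joined to the class, the log2 fold change was 3.96 (adjusted p = 9.9e-05). Without the day 40 donor-derived library it was 2.32. No Thbs1 UMI was found in macrophage-like, T or NK-like or B-like cells of the endogenous libraries.

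Tgm2 encodes transglutaminase 2, which cross-links proteins and is known both as a TGF-beta-induced gene and as an enzyme acting on the latent complex. It was a basal cell gene here. Endogenous basal-like cells had 420 CPM on both days and control ones 334 CPM (interval 290.2 to 383). Donor-derived basal-like cells had 180 and 160 CPM, below all 3. The fall was 2.69-fold (log2 fold change -1.43, SE 0.13, adjusted p = 0.000996). Its share of cells with a UMI after thinning was 52.0% and 48.3% when donor-derived, 83.4% and 83.5% when endogenous and 77.3% in the control (before thinning 74.1%, 65.2%, 90.1%, 95.3% and 87.9%), and 0 of 36 and 1 of 123 T or NK-like cells had a UMI before thinning.

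Among donor-derived basal-like clusters Tgm2 ran from 263 and 184 CPM in cluster 0 to 113 and 63.0 CPM in cluster 7. None reached the endogenous level. The 14 donor-derived day 40 cells in the endogenous basal-like cluster 2 had 367 CPM (86 UMIs, interval 293 to 453), below the endogenous value with an interval that reaches it. Macrophage-like cells had 17.3 and 57.4 CPM, so immune cells held less than basal-like cells. Other endogenous epithelial cells held Tgm2 too. The mean was 234 CPM in the dividing cluster 18 (day 40 only), 192 CPM in hillock-like cells and 178 CPM in the unnamed cluster 8. Donor-derived basal-like cells had a mean of 170 CPM.

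In ciliated-like cells Tgm2 rose from a low level. It was 50.1 and 45.1 CPM when donor-derived, 11.2 and 15.1 CPM when endogenous and 3.08 CPM in the control (5 UMIs, interval 1.0 to 7.19). The groups did not overlap, and the control lay lowest. The rise was 3.34-fold (log2 fold change 1.74, SE 0.24, adjusted p = 0.00754). It was called with own-gate clusters alone (1.60, adjusted p = 0.00064) and not without the day 40 endogenous library (1.54). The 10 basal markers summed to 699 and 77.9 CPM in ciliated-like cells of the donor-derived gate against 257 and 159 CPM in endogenous ones. Their part in the result was not tested. The Tgm2 levels of the donor-derived pair differed by less than their counting intervals.

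Secretory-like cells stood between these. Tgm2 was 99.97 and 47.7 CPM when donor-derived, 50.9 and 53.8 CPM when endogenous and 17.1 CPM in the control. The donor-derived days lay on either side of the endogenous values, and no difference was called (log2 fold change 0.16, SE 0.42, adjusted p = 0.886). Without the day 56 donor-derived library the log2 fold change was 0.63. The sign turned without the day 40 donor-derived library (-0.38), with clusters 3 and 8 joined (-0.25) and when the 7 genes and their pathway were kept out of the clustering (-0.18).

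**Figure D3:**
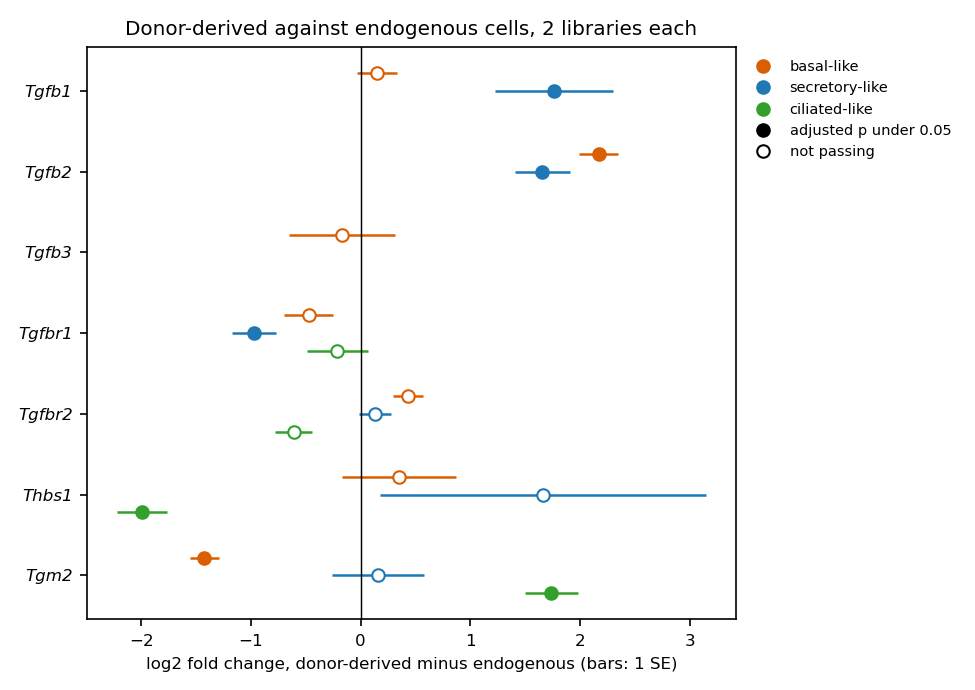
Log2 fold change of each gene, donor-derived minus endogenous (horizontal axis, bars 1 SE), in 3 classes with 2 libraries a group, filled where the adjusted p was under 0.05. Tgm2 runs from -1.43 in basal-like to 1.74 in ciliated-like cells, and Tgfb2 lies above 1.6 in both classes where it was tested.

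The Tgm2 change differed between classes by its own test. The basal-like minus ciliated-like difference was -3.16 on the log2 scale (SE 0.26, adjusted p = 5.9e-05). It was -1.53 for basal-like minus secretory-like cells (SE 0.27, adjusted p = 0.0217, 4.42% of genes called) and -1.66 for secretory-like minus ciliated-like cells (SE 0.30, adjusted p = 0.00307, 2.87% called). With 1 library left out the basal-like minus secretory-like difference ranged from -1.97 to -1.12, and it was not called without an endogenous library. For Thbs1, basal-like minus ciliated-like was 2.45 (SE 0.45, adjusted p = 0.0312), a call lost on leaving out the day 40 endogenous library (difference 1.92). With own-gate clusters alone it was 3.06 (adjusted p = 0.00108), and Tgm2 was -3.04, -1.52 and -1.71 in the 3 differences, each called. Secretory-like minus ciliated-like Thbs1 was then 4.46 (SE 0.46). With all cells it was 3.69 (SE 1.47, adjusted p = 0.507), and -0.45 without the day 56 donor-derived library. Donor-derived secretory-like Thbs1 was 0.40 and 10.0 CPM with all cells. The smaller SE does not reflect that spread between libraries, so no p-value is given for it. Tgfbr2 was called with own-gate clusters alone (0.88, adjusted p = 0.00354) and not with all cells (0.77, adjusted p = 0.0532).

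Against the uninjured control, which is 1 library and allows no test, a gene was counted when both recipients stood 2-fold or more away in 1 direction, at 20 CPM or more. Values in this comparison are scaled by TMM over the class. In donor-derived basal-like cells Tgfb2 alone of the 7 was counted, at 74.3 and 63.7 against 10.5 scaled CPM, where 6.3% of genes were counted as higher and 4.67% as lower. In endogenous basal-like cells none of the 7 was counted (1.69% of genes higher, 0.747% lower). Tgm2 there was 445 and 435 against 310.5 scaled CPM.

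In secretory-like cells Tgm2 was above the control in both sorted groups, at 54.1 and 58.0 scaled CPM in endogenous and 85.9 and 43.5 in donor-derived libraries against 19.0. Of all genes, 1.35% were higher and 0.193% lower in the endogenous comparison, and 5.39% higher in the donor-derived one. Tgfbr1 was lower than the control in donor-derived secretory-like cells, at 12.7 and 13.2 against 28.7 scaled CPM (4.95% of genes lower), and was not counted after scaling by total UMIs. In donor-derived ciliated-like cells Tgm2 was higher, at 48.1 and 42.6 against 3.09 scaled CPM (3.04% of genes higher), and Thbs1 was lower, at 28.2 and 21.3 against 58.6 (3.1% lower), again not counted after scaling by total UMIs. With own-gate clusters alone both were still counted, Tgm2 at 40.1 and 42.8 against 3.15 and Thbs1 at 7.52 and 21.1 against 59.9 scaled CPM. In endogenous ciliated-like cells none of the 7 was counted (1.16% of genes higher, 0.382% lower). Tgm2 stood above the control there before this scaling (11.2 and 15.1 against 3.08 CPM), but under the floor of 20 CPM. These comparisons share the same control library.

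**Figure D4:**
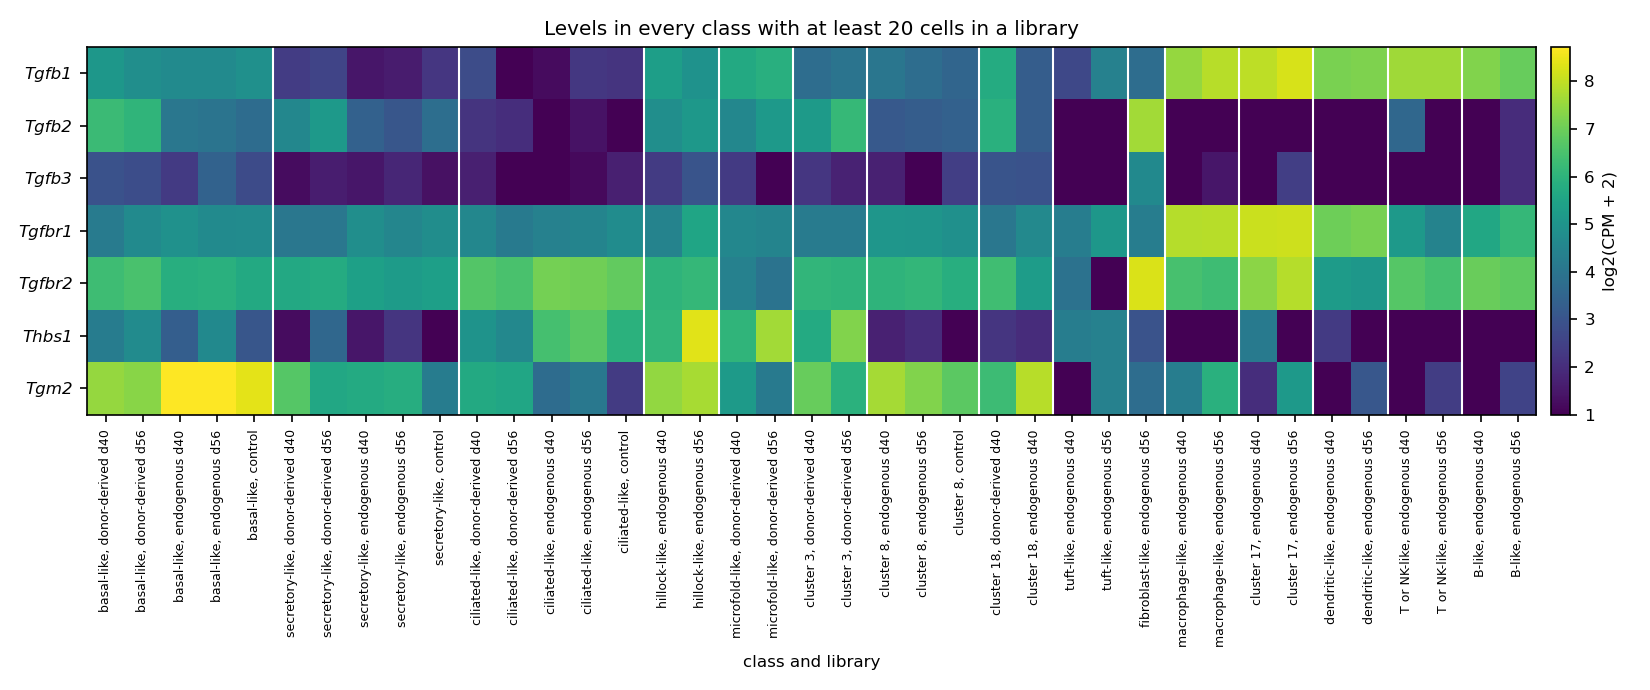
Heat map of log2(CPM + 2) for the 7 genes (rows) in every class and library with at least 20 cells (columns, white lines between classes). Tgfb1 and Tgfbr1 are brightest in the immune classes at the right, Tgm2 in basal-like cells at the left, and Thbs1 in day 56 hillock-like and microfold-like cells.

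The genes whose levels over these 39 class-by-library sums ran closest to each of the 7 were looked up by Pearson correlation of log2(CPM + 2), as a description, since the sums share libraries and depth. Closest to Tgfb2 were Pmp22 (r = 0.92), Gja1 (0.87) and C1s1 (0.86). Closest to Tgfb1 were Tln1 (0.97), Arhgdib (0.95) and Arpc4 (0.93), and closest to Tgfbr1 were Pld4 (0.94), Itgax (0.93) and Tifab (0.92). Tgm2 ran with Chl1 (0.87), Glul (0.87) and Fat2 (0.86), and Thbs1 with Prss22 (0.81), Nfe2l1 (0.80) and Ddx3x (0.79). Tgfbr2 had the loosest partners, Mri1 (0.80), Prmt5 (0.76) and Dpp9 (0.75). Tgfb3, with 10 or more UMIs in only 6 sums, ran with Antxr1 (0.86), Prss23 (0.83) and Dcn (0.82).

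Around the 7 genes, 86 further genes of the pathway were listed by role. The lists were chosen with earlier results of these data known, so the shares called are a description. In basal-like cells 70 of them were tested, 5 rose and 8 fell, and 18.6% were called against 10.7% of all genes. In secretory-like cells 7 rose and 4 fell of 53 (20.8% against 16.7%), and in ciliated-like cells 1 rose and 2 fell of 48 (6.25% against 3.85%). With own-gate clusters alone 4 rose and 3 fell of 50 in ciliated-like cells (14% against 11.7% of all genes). The lists' median log2 fold changes were 0.07, -0.03 and 0.08 in the 3 classes, beside medians of all genes within 0.01 of 0.

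Genes that hold or release latent TGF-beta changed in both directions in basal-like cells, 2 of 12 higher and 4 lower. Mmp14, a membrane-bound protease, rose (113 and 75.6 against 41.7 and 31.1 CPM; log2 fold change 1.24, adjusted p = 0.0294). Ltbp4, which binds latent TGF-beta in the matrix, fell (125 and 117 against 208 and 266 CPM; -1.09, adjusted p = 0.00543). The other called members stood under 20 CPM on average and are named because they are few: Ltbp1, a second latent TGF-beta binding protein, rose from 0.54 and 0.39 to 19.6 and 21.4 CPM. Itgb8, an integrin subunit that takes part in freeing TGF-beta, fell from 10.2 and 20.9 to 1.02 and 0.46 CPM, and Mmp2 and Fbn1 fell at levels of at most 5.52 CPM. In secretory-like cells 1 of 8 was called: Itgb6, another TGF-beta-releasing integrin subunit, rose from 4.05 and 4.55 to 23.2 and 23.3 CPM (2.15, adjusted p = 3.87e-06). None of 7 was called in ciliated-like cells by edgeR (1 at an unadjusted p under 0.05) or by DESeq2, and 1, Furin, rose with own-gate clusters alone (1.19, adjusted p = 0.0499).

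In the list of co-receptors and related receptors, the genes that were called all fell. In basal-like cells these were 3 of 9: Tgfbr3 (betaglycan, which presents TGF-beta 2 to the signalling receptors) from 21.0 and 26.0 to 0.57 and 1.10 CPM, the pseudoreceptor Bambi from 16.4 and 14.6 to 2.50 and 4.84 CPM, and Acvrl1 from 3.50 and 7.88 to 0.11 and 0 CPM. Tgfbr3 had a log2 fold change of -4.87 (SE 0.34, adjusted p = 0.000332). Tgfbr3 also fell in ciliated-like cells, from 43.9 and 57.1 to 25.6 and 26.7 CPM (-1.04, SE 0.23, adjusted p = 0.042; with own-gate clusters alone -1.15, adjusted p = 0.00646), 1 of 8 called there. Bambi and Acvrl1 were the 2 of 8 that fell in secretory-like cells. The list's medians were -0.46, -0.25 and -0.30 in the order basal-like, secretory-like, ciliated-like. Over all genes 6.61%, 9.66% and 1.93% were called lower in that order.

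By edgeR none of 18 SMADs and their modulators was called in basal-like cells or of 17 in ciliated-like cells (3 and 1 at an unadjusted p under 0.05, and 0 in each by DESeq2). In secretory-like cells 1 of 18 fell, Smad1, from 20.1 and 19.2 to 16.4 and 15 CPM (-0.62, adjusted p = 0.0368). Medians were 0.08, 0.07 and -0.14.

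Genes used as readouts of TGF-beta signalling did not move as one. In basal-like cells 2 of 23 rose and 1 fell (median 0.33). The cell-cycle inhibitors Cdkn2b (from 0 and 0.79 to 26.7 and 20.4 CPM) and Cdkn1a (from 1.61 and 0.79 to 14.4 and 8.31 CPM) rose, while the TGF-beta-stimulated gene Tsc22d1 fell from 257 and 359 to 120.3 and 167 CPM (-1.22, SE 0.22, adjusted p = 0.0192). In secretory-like cells 4 of 13 rose and 1 fell (median 0.29). Cdkn2b, Junb and Tgm1 were among those that rose there, and Tsc22d1 fell (-0.72, adjusted p = 0.00174). Junb, which is also in the dissociation stress list, was 201 and 188 against 92.8 and 129 CPM (0.52, adjusted p = 0.0268). By edgeR none of 11 was called in ciliated-like cells (2 at an unadjusted p under 0.05, 1 called by DESeq2). With own-gate clusters alone 2 of 13 rose there, Cyr61 and Cdkn2b, and 1 fell, Inhba.

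In the neighbouring activin and BMP list, Id3, a target of BMP signalling, rose in all 3 classes. It went from 8.07 and 20.9 to 75.0 and 104 CPM in basal-like cells (log2 fold change 2.57, adjusted p = 0.0333), from 4.05 and 5.74 to 38 and 22.9 CPM in secretory-like cells (2.28, adjusted p = 4.34e-05) and from 2.56 and 7.55 to 29.3 and 45.8 CPM in ciliated-like cells (2.81, adjusted p = 0.0164). Bmp2 was the other riser in secretory-like cells, at no more than 4.80 CPM. Inhbb, an activin subunit, fell in ciliated-like cells from 34.3 and 32.0 to 6.11 and 10.3 CPM (-2.02, adjusted p = 0.00887). With own-gate clusters alone the ciliated-like changes were 3.12 for Id3 (adjusted p = 0.000126) and -2.22 for Inhbb (adjusted p = 0.00265). Counts were 1 of 8, 2 of 6, and 1 higher and 1 lower of 5.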

How the data were processed

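The authors deposited a matrix of raw UMI counts for each library from the 10X Chromium system, with features of a combined mouse and human reference plus EGFP and mCherry sequences, per the file headers. Per the submitters' processing notes, the tools were STARsolo, Cell Ranger and Seurat, with the builds GRCh38 and GRCm38; versions and filters are not given in the sources used here. From the deposited counts, 192 barcodes of the control library with over 10% human UMIs, 38 with under 500 genes or over 20% mitochondrial UMIs, and 48 Scrublet doublets (0.727%) were left out of 6832. Cells were clustered with scanpy 1.11.5 (2000 variable genes, 4 of the 7 members among them, 30 principal components, Leiden resolution 1.0, 24 clusters) and named from marker lists. A cluster took the class with most markers among its 10 leading genes, with at least 3 detected; ties stayed unnamed. Class names are rebuilt here and may differ from the study's.

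Counts were summed per library and class of at least 20 cells and tested with edgeR 4.0.16 (TMM, filterByExpr, quasi-likelihood F-test, Benjamini-Hochberg over all genes tested, threshold 0.05); SEs are the log2 fold change over the root of F. DESeq2 1.42.0 was an alternative. Both gates of a day were sorted from 1 recipient, per the labels and the design text; deviations of same-recipient libraries correlated at 0.25 in basal-like, 0.14 in secretory-like and -0.04 in ciliated-like cells. The members and lists were chosen with earlier results of these data known. All 7 members are named; from each list, called genes of 20 CPM or more with the largest changes, up to 4, and, after their values were seen, the rest of any small count. One called gene of the response list is not reported here.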

Additional observations from a re-analysis of the deposited data

Results flagged for a closer look

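The change from endogenous to donor-derived cells differed between classes, by the class-by-group interaction test in edgeR, for 3 of the 7 genes. Tgm2 differed in all 3 pairs of classes, by -3.16 for basal-like minus ciliated-like, -1.66 for secretory-like minus ciliated-like and -1.53 for basal-like minus secretory-like cells on the log2 scale. Thbs1 differed by 2.45 and Tgfbr2 by 1.08 between basal-like and ciliated-like cells. Over all genes 1.97%, 2.87% and 4.42% were called for these pairs in that order. On leaving out an endogenous library, the calls of Tgfbr2 (1.05 and 1.16) and of Tgm2 for basal-like minus secretory-like cells (-1.48 and -1.58) were lost. So was that of Thbs1 without the day 40 endogenous library (1.92). These fits leave 1 endogenous library, so only their effect sizes are given. Without a donor-derived library these differences were 1.24 and 0.92 for Tgfbr2, -1.12 and -1.97 for Tgm2, and 2.82 and 1.93 for Thbs1.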

How the results depend on the processing

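The Tgfb2 rise in basal-like (1.92 to 2.29) and secretory-like cells (1.24 to 2.05), the Tgm2 fall in basal-like cells (-1.51 to -1.24) and the Thbs1 fall in ciliated-like cells (-2.47 to -1.77) stayed called under every alternative run. The signs that turned were all of uncalled changes. With 1 library left out, basal-like Thbs1 ranged from -0.27 to 1.28 and Tgfb3 from -0.80 to 0.73, secretory-like Tgm2 from -0.38 to 0.63 and Thbs1 from -2.27 to 2.75, and ciliated-like Tgfbr1 from -0.45 to 0.078. Clustering at resolution 0.5 and 2.0 gave basal-like Thbs1 -1.53 and -0.49. Secretory-like Tgm2 was -0.18 when clustered without the pathway's genes and -0.25 with clusters 3 and 8 joined (an alternative chosen after seeing the data). Among genes tested in both classes, differences between classes with 1 library left out ranged from -0.77 to 0.21 for Tgfbr1 (basal-like minus ciliated-like), and for Thbs1 from -1.78 to 2.30 (basal-like minus secretory-like) and from -0.45 to 4.49 (secretory-like minus ciliated-like). The cause of these turns was not tested.

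Counts of genes called moved more. Without the expression filter they were 2469 in basal-like and 791 in ciliated-like cells, and 899, 641 and 560 for the differences basal-like minus secretory-like, basal-like minus ciliated-like and secretory-like minus ciliated-like. With 1 library left out, where the lone library is assumed to vary like the other pair, they ranged from 327 to 1931 in basal-like, 1129 to 1724 in secretory-like and 50 to 2110 in ciliated-like cells, and from 90 to 1081, 32 to 1043 and 221 to 634 for those differences. In each of the 6 sets the lowest count came with an endogenous library left out. Of the 7 genes, 1 to 3 were called in ciliated-like cells with a library left out. The recipient as a replicate block gave 2009 genes and 3 of the 7 in basal-like cells and changed no other call among the 7. Secretory-like genes called were 2748 with total UMIs and 898 with DESeq2, which called 1 of the 7. Ciliated-like genes called were 614 at resolution 2.0 and 1227 with own-gate clusters alone (chosen after seeing the data), which gave 451 for basal-like minus ciliated-like and 809 for secretory-like minus ciliated-like.

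Against the control, a floor of 50 CPM counted 182 higher and 114 lower genes in donor-derived and 41 and 9 in endogenous basal-like cells, 99 and 92, and 30 and 1, in secretory-like cells, and 95 and 95, and 39 and 7, in ciliated-like cells. Scaling by total UMIs counted 387 higher and 141 lower in donor-derived secretory-like and 93 lower in endogenous basal-like cells. Thinning lowered the share of basal-like cells with a Tgfb2 UMI to 25.3% and 25.9% (donor-derived) and 7.10% and 5.65% (endogenous). Levels under 10 UMIs, as for Tgfb3 in secretory-like and ciliated-like cells, are limited by depth.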

Other observations

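The control library's 192 barcodes with over 10% human UMIs held 22 mouse UMIs of the 7 genes in all: 10 of Tgfbr2, 8 of Tgm2, 3 of Thbs1 and 1 of Tgfb2. Their levels did not exceed those of the control's mouse cells beyond counting error; Tgfbr2 was 66.0 CPM (lower bound 31.6) against 60.2 CPM.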
